A study of Mus musculus with 111 samples.

Results

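The 7 mitochondrial tRNAs for isoleucine, methionine, tryptophan, aspartate, lysine, glycine and arginine were followed through 6 mouse tissues and 4 diets. They are the entries mt-tRNA-Ile-GAT-1, mt-tRNA-Met-CAT-1, mt-tRNA-Trp-TCA-1, mt-tRNA-Asp-GTC-1, mt-tRNA-Lys-TTT-1, mt-tRNA-Gly-TCC-1 and mt-tRNA-Arg-TCG-1 of a small-RNA read-count table, chosen by name. They are 7 of 22 mitochondrial tRNAs and 7 of 1268 entries. They lie in this order on the strand of the annotation that carries the tRNAs cut from heavy-strand transcripts. The table covers heart (19 libraries), liver (17), sperm taken from the cauda epididymis (19), cauda epididymis (18), caput epididymis (19) and testis (19), 111 libraries in all.

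Mice were kept for 6 months on 1 of 4 diets, which gave 24 groups of 4 or 5 libraries. The low-protein diet (LP) held 10% protein, with sucrose in place of the missing mass, and its control diet (C) held 18%. The high-fat diet (HF) took 60% of calories from fat, and its own control diet (C_HF) took 7.2%. LP was compared with C, and HF with C_HF. The control diets were also compared with each other, C_HF with C, because the LP and the C_HF contrasts rest on the same C libraries. Age, strain and genotype were not used here. OTTR-seq was used for the libraries, a method whose reverse transcriptase attaches the adapters as it copies each RNA.

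Mitochondrial DNA is copied into long RNAs that hold messenger RNAs with tRNAs between them. Nucleases cut at both ends of each tRNA and so release the tRNA and its neighbours together, after which the tRNA receives CCA at its 3′ end and many base modifications. The tRNAs are used inside the mitochondrion to make the proteins that the mitochondrial genome encodes, all of them subunits of the respiratory chain and ATP synthase. Heart and liver are rich in mitochondria, and a mature sperm keeps its own in the midpiece.

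The 7 reference sequences are shown because the members differ in the anticodon, in base composition and in length. They were read from the GRCm38 assembly with the GENCODE M21 annotation, all on the plus strand, at chrM:3706-3774 (mt-Ti), chrM:3845-3913 (mt-Tm), chrM:4950-5016 (mt-Tw), chrM:6942-7011 (mt-Td), chrM:7700-7764 (mt-Tk), chrM:9391-9458 (mt-Tg) and chrM:9808-9875 (mt-Tr). Capitals mark the anticodon.
mt-tRNA-Ile-GAT-1: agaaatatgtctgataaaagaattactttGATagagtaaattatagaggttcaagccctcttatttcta
mt-tRNA-Met-CAT-1: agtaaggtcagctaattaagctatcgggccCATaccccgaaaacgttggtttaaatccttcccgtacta
mt-tRNA-Trp-TCA-1: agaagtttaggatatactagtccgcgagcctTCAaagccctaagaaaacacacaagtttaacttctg
mt-tRNA-Asp-GTC-1: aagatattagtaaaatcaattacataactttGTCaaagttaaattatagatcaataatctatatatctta
mt-tRNA-Lys-TTT-1: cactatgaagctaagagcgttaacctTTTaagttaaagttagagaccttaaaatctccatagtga
mt-tRNA-Gly-TCC-1: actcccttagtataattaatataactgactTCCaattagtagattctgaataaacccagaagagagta
mt-tRNA-Arg-TCG-1: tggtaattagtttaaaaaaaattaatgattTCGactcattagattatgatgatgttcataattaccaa

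The genes were 65 (Lys) to 70 (Asp) bases long and spread over 6170 bases. Mitochondrial tRNAs as a whole measured 59 to 75 bases. Met had the highest share of G and C of all 22 mitochondrial tRNAs, 44.9%, and Asp the lowest, 17.1%, around a median of 34.1%. The bases on either side of the anticodon could pair at 5 of 5 positions in all members except Trp, which had 3. In the acceptor stem 7 of 7 positions could pair, except in Met and Gly, with 6 each. The Arg sequence holds a run of 8 A, a run whose length is known to differ between inbred mouse strains.

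Each member stands against a protein-coding gene on at least 1 side, so that its cut also frees an end of a messenger RNA. The Ile gene overlaps the end of mt-Nd1 by 2 bases, and Met ends directly before mt-Nd2. Trp overlaps the end of mt-Nd2 by 2 bases. Asp lies 1 base before mt-Co2, Lys between mt-Co2 and mt-Atp8, Gly between mt-Co3 and mt-Nd3 with no base on either side, and Arg between mt-Nd3 and mt-Nd4l with 1 base on each. In the 13 mitochondrial protein-coding genes Ile codons were the most frequent of the 7, with 373 of 3800 codons (9.82%), and the codons of Arg the rarest, with 64 (1.68%). Met accounted for 247 codons, Gly for 212, Trp and Lys for 103 each and Asp for 74.

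The values are read counts, tested with edgeR, and are printed as RPM, reads per 1000000 reads of the 1042 features left after entries that list the same reads were reduced to 1. A log2 fold change comes from the edgeR fit and its scaling (TMM), so it can differ from the ratio of 2 RPM values; errors on fold changes are standard errors. Depth over these features ran from 827 to 1467880 reads per library, with a median of 59904. Only 3 libraries fell under 5000 reads, HF liver replicate 3 with 827 and LP caput replicates 2 and 3 with 2353 and 912. Whether the libraries of a group stem from different animals is not stated and no batch label is given, so the p-values cover only the spread between these libraries. Column names of the table carry a number after the letter S, of unstated meaning, which sets the C libraries of liver (1 to 4) apart from those of the other diets there (44 to 56), and the C hearts (5 to 9) from the LP hearts (35 to 39), while HF and C_HF hearts carry none. Diet and library set cannot be told apart in these comparisons with C. Separate runs of numbers also went with the diets of caput, testis, cauda and sperm. C caput had 11 to 15 and LP caput 21 to 25, and C testes had 48 to 52 and C_HF testes 58 to 62. Whether these runs mark library sets is not known. The table lists no messenger RNA markers of cell types. The 276 entries of germ-cell piRNA precursors averaged 4.54% of reads in testis, 0.602% in sperm, 0.435% in cauda, 0.0322% in liver, 0.0249% in caput and 0.00554% in heart. An entry does not separate a whole tRNA from a fragment of it. All columns also bear the code gt65 at the end of their names, which no label explains, and whether short reads were left out is not known.

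Met, the tRNA that serves both the start codon and methionine codons within the chain, was the member with the widest spread of levels between tissues after Trp. In heart its lowest, median and highest library had 65096, 100510.1 and 281298 RPM, and in liver 21686, 86392 and 145469.6 RPM. Sperm stood at the other end with 1220.0, 7697 and 17403 RPM. The heart mean of 121883 ± 58401 RPM (SD, n = 19) was 15.7 times the sperm mean of 7756 ± 4500.4 RPM (SD, n = 19), and no heart library overlapped any sperm library. Caput (30866 ± 14981 RPM, n = 19), testis (26089 ± 7583 RPM, n = 19) and cauda (12260.3 ± 3151 RPM, n = 18) lay between them.

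Lys, whose wobble base carries a taurine modification in the mature tRNA, was also most abundant in heart, with 4450.4, 32455 and 141460.5 RPM as lowest, median and highest library. Cauda was lowest by its mean, with 2156, 5076 and 26497 RPM. The order of its means was heart, liver, caput, sperm, testis, cauda, with a ratio of 7.68 between the ends. Sperm took a higher place in this order for Lys (median 10272 RPM) than for Met, Trp, Gly and Arg, for each of which it came last. The heart mean of Lys was 114219.5 RPM with C, 34088 RPM with C_HF, 32450 RPM with HF and 10443 RPM with LP. With LP, the means of liver (23176 RPM) and sperm (12839 RPM) lay above that of heart, and those of testis, caput and cauda below it.

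Gly and Arg, which read whole 4-codon boxes with an unmodified first anticodon base, ran alike. Heart and caput headed both orders of means, though the Arg median was 19363 RPM in liver and 16500 RPM in caput. Gly averaged 29275 ± 16829 RPM in heart and 29193 ± 24175 RPM in caput, while Arg averaged 25979 ± 13646 RPM in heart and 23766 ± 18533 RPM in caput (SD, n = 19 each). Sperm was lowest for both, with medians of 3149.6 RPM for Gly and 1978 RPM for Arg. Asp, whose wobble guanine is replaced by queuosine, had its highest mean in caput, 9991 ± 9269.5 RPM (SD, n = 19). Its caput libraries ran from 0 to 28838 RPM around a median of 5479.9, against 102 to 5885 RPM in testis, the tissue with the lowest mean. By median, heart (8105 RPM) and liver (6544 RPM) lay above caput. The caput mean of Asp was 23077 RPM with C, 7809 RPM with C_HF, 6187 RPM with HF and 2131 RPM with LP.

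Ile and Trp were the members with the fewest reads per base in every tissue, as mean shares. Ile had 34.2, 1681 and 2764 RPM as lowest, median and highest library in heart, and 0, 133 and 1055 RPM in testis. Trp, which reads UGA as tryptophan in mitochondria, had 0, 637 and 4959 RPM in liver and 0, 30.2 and 353 RPM in sperm. Its liver mean was 3632 RPM with C, 645 RPM with LP, 504 RPM with HF and 445 RPM with C_HF. Ile was at 0 in 9 of 111 libraries and Trp in 10, while Met, Lys and Arg were read in all 111. Of the 35 pairs of neighbours in the 7 orders of tissue means, 30 differed by less than the larger of their SDs, and the ranges overlapped in all 35. In bulk tissue, fewer cells of a type and less RNA per cell cannot be told apart.

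**Figure D1:**
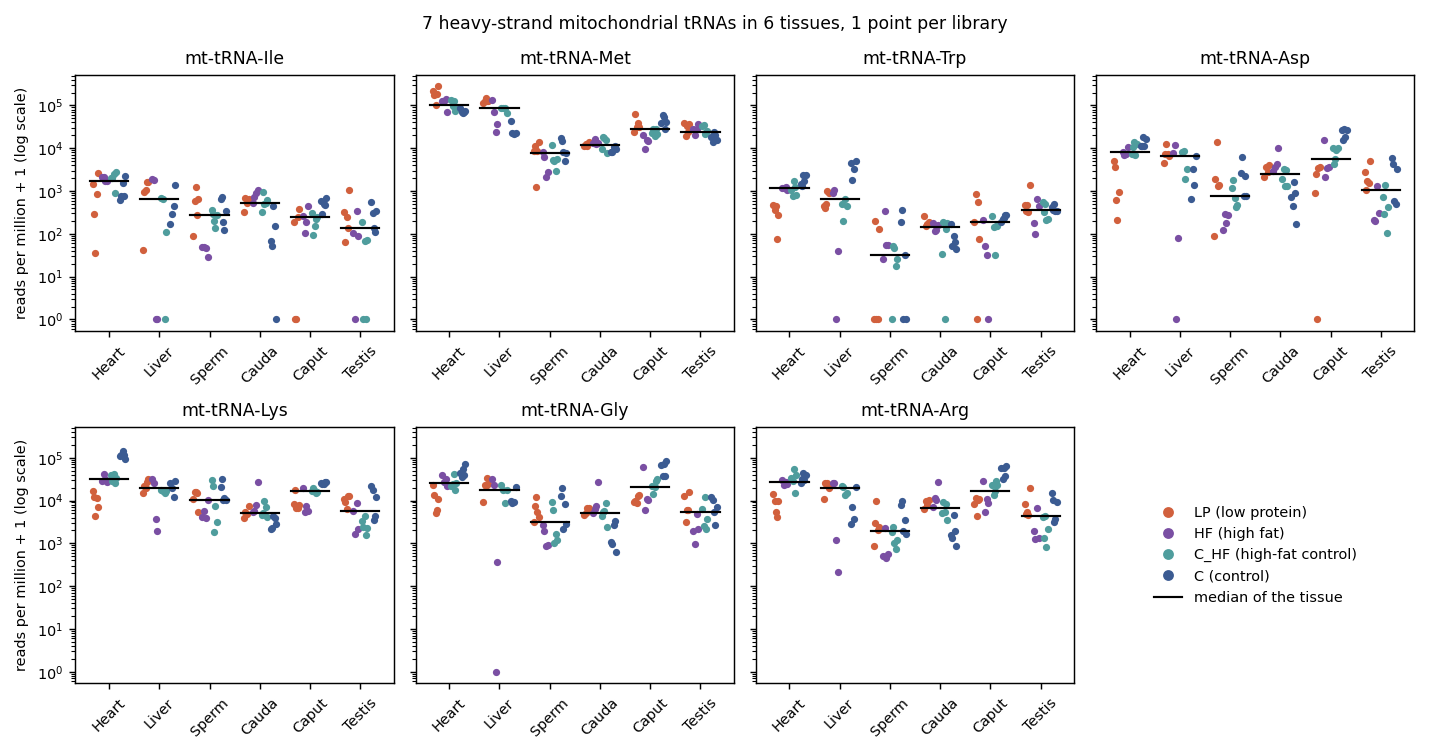
Level of each of the 7 mitochondrial tRNAs in every library, as RPM + 1 on a log axis, by tissue; colours give the diet and the line the median of the tissue. Met lies highest in heart and liver, with medians of 100510.1 and 86392 RPM, and lowest in sperm, with 7697 RPM.

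Divided by gene length, the 7 members could be compared with each other within a library. Met held the largest share of their reads per base in liver (56.9% ± 17.3, n = 17), heart (52.7% ± 22.9, n = 19), testis (58.2% ± 19.5, n = 19) and cauda (40.3% ± 12.6, n = 18; SD throughout). In sperm the leading member by mean was Lys, with 41.7% ± 13.6 of the reads per base, and Met held 29% ± 13.5 (SD, n = 19). Lys was the highest of the 7 in 14 of 19 sperm libraries and Met in the other 5. In heart Met was the highest in 14 of 19 libraries and Lys in the other 5, which were the 5 C hearts. Lys also led in 1 liver, 2 testis and 1 cauda library, and Met in the rest of these 3 tissues. In caput Met led in 10 libraries, Gly in 7 and Arg in 2, with mean shares per base of 32.2% ± 14.5 for Met, 24.1% ± 7.30 for Gly and 20.0% ± 5.26 for Arg (SD, n = 19).

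Ile held between 0.289% (caput) and 1.35% (cauda) of the reads per base, and Trp between 0.204% (caput) and 1.37% (liver), as tissue means. In liver the mean share of Trp was 4.81% with C and 0.294% to 0.337% with the other diets. The order of the members by reads per base was thus not that of their codons, since Ile has the most codons of the 7. All 7 together made up 23.7% ± 5.73 of reads in heart, 13.8% ± 6.81 in liver, 11% ± 6.58 in caput, 4.79% ± 1.70 in testis, 3.50% ± 2.07 in cauda and 3.08% ± 2.05 in sperm (SD).

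**Figure D2:**
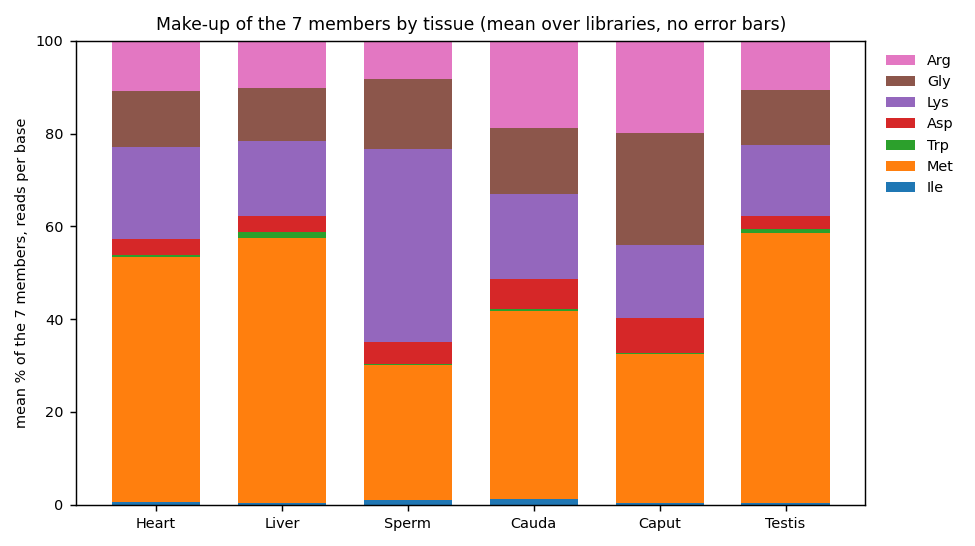
Mean share of each member among the reads per base of the 7, in percent, stacked for each tissue, with no error bars. Met takes 56.9% in liver and 52.7% in heart, and Lys 41.7% in sperm.

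Neighbouring tissues were then compared over all libraries in 1 edgeR fit with diet as a term, where a call needed an adjusted p under 0.05 and a log2 fold change of at least 1 in either direction. All 7 members were higher in heart than in liver, where 33.3% of 294 features tested were called. So were 6 of 6 other heavy-strand mitochondrial tRNAs tested and 7 of 8 light-strand ones. Median log2 fold changes were 1.95 for the members, 1.88 for the other heavy-strand ones and 2.1 for the light-strand ones. The log2 fold changes of the members ran from 1.35 ± 0.37 for Trp (adjusted p 0.00166) to 2.23 ± 0.46 for Ile (3.62e-05). Met was higher by 1.95 ± 0.31 on that scale (1.07e-07) and Lys by 2.19 ± 0.37 (6.65e-07). The Trp direction rested on the scaling: its mean level was 1109 ± 647 RPM in heart and 1267 ± 1511 RPM in liver, and its log2 fold change with total counts was -0.05. With total counts, which moved the median log2 fold change of all features to -1.23, against -0.18 with TMM, 2 of the 7 were called. Within the LP libraries alone, and within the HF libraries alone, none of the 7 was called. For this and the further tissue pairs, the share of all features called in other settings or within single diets is not given here.

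In liver, 4 members were higher than in caput, where 23.5% of features were called. Trp had the lowest p of all 294 features, with a log2 fold change of 3.21 ± 0.41 (adjusted p 5.40e-10), and Ile (2.22 ± 0.48), Met (2.12 ± 0.31) and Lys (1.31 ± 0.36) were higher too. Liver Trp averaged 3632 RPM with C and 445 to 645 RPM with the other diets. Asp, Gly and Arg had log2 fold changes of 0.14, 0.24 and 0.37 and were not called. Among the 4 higher ones, the Met direction did not hold within the C libraries, where it was -0.14, and none was called within C_HF libraries. The Lys call was lost with total counts (0.44) and with all entries as deposited (0.94). Caput exceeded testis for 5 members, with 64.3% of features called: Asp by 3.25 ± 0.50, Gly by 2.76 ± 0.42, Arg by 2.68 ± 0.42, Lys by 1.65 ± 0.34 and Ile by 1.14 ± 0.45 on the log2 scale. The Ile call was lost with RLE scaling (0.55), DESeq2 (0.56), total counts (0.49) and no filter on low counts (0.85). Within LP libraries none of those 5 was called.

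Sperm was set against testis, where its precursors form, and against the cauda that stores it. Compared with testis, Lys was higher in sperm (log2 fold change 1.46 ± 0.34, adjusted p 6.04e-05), as was Ile (1.05 ± 0.45, 0.0252), while Met (-1.10 ± 0.29, 0.000325) and Trp (-1.77 ± 0.41, 4.84e-05) were lower. There 75.2% of features were called, a share above the 4 of 7 members. The Lys call was lost with total counts (0.75), without the filter on low counts (0.68) and with all entries as deposited (0.55). Ile lost its call in the same 3 settings (0.45, 0.32 and 0.48) and without the libraries under 5000 reads (0.94), and Met fell short of the fold limit with RLE and with DESeq2 (-0.91 in both). Compared with cauda, where 42.9% of features were called, only Arg passed both limits, at -1.69 ± 0.42 (adjusted p 0.000470) and lower in sperm, and within C libraries its log2 fold change was 0.61. With RLE scaling and with DESeq2 it was -0.92 and not called. Lys (0.86, adjusted p 0.0304) and Met (-0.70, 0.0364) passed the p alone. Cauda held less than caput of 5 members, with 64.6% of features called: Gly (-2.13 ± 0.43), Asp (-1.63 ± 0.50), Arg (-1.49 ± 0.42), Met (-1.15 ± 0.29) and Lys (-1.05 ± 0.35). Within the LP libraries, and within the HF libraries, none of these was called.

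Diet contrasts were fitted within each tissue over its 4 diets, and a call needed an adjusted p under 0.05. In heart, 6 of the 7 members differed between LP and C, and they did not move together: Met was higher and the other 5 lower, while 75.2% of the 242 features tested were called. DESeq2 also called 6, among 186 features. Lys had 16715, 12374, 4450.4, 11623 and 7054 RPM in LP hearts, against 107761, 114171, 141460.5, 113535 and 94170.5 RPM in C hearts. The highest LP heart lay far under the lowest C heart, and the log2 fold change was -3.57 ± 0.55 (edgeR adjusted p 5.03e-10). Met had 214463, 174941, 100510.1, 189040.5 and 281298 RPM in LP hearts, against 87869, 69004, 65096, 71020.4 and 73024 RPM in C hearts. Every LP heart exceeded every C heart, with a log2 fold change of 1.25 ± 0.50 (adjusted p 0.0178).

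The other 4 that fell stood apart in the same way, in a contrast where 52.9% of features had ranges that did not overlap. Asp had 5036, 3670.2, 616, 214 and 951 RPM in LP hearts, against 11120.1, 11358, 18544, 11302 and 16657 RPM in C hearts, a log2 fold change of -2.71 ± 0.54 (adjusted p 1.29e-06). Trp had 464, 362, 445, 74.3 and 272 RPM in LP hearts, against 1469, 1335, 2310.4, 1721 and 2427 RPM in C hearts (-2.71 ± 0.53, adjusted p 8.26e-07). For both, no LP library reached any C library. Gly ranged from 4998 to 23165 RPM in LP hearts and from 35092 to 71024 RPM in C hearts, with a log2 fold change of -2.14 ± 0.52 (adjusted p 8.12e-05). Arg ranged from 4042 to 14412 RPM in LP hearts and from 26284 to 44227 RPM in C hearts (-2.10 ± 0.52, adjusted p 0.000111). Ile overlapped, at 34.2 to 2640.1 RPM in LP hearts and 602 to 2230.4 RPM in C hearts, and was not called (-0.29 ± 0.50, adjusted p 0.607).

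Per base, Met made up 84.6% ± 5.30 of the 7 in LP hearts and 25% ± 4.06 in C hearts, and Lys 4.94% ± 1.70 in LP hearts and 41% ± 5.06 in C hearts (SD, n = 5 each). The Met call was lost with all entries as deposited (log2 fold change 0.45) and when LP was set against C_HF instead (0.78). Set against C_HF, the other 5 were also called lower in LP hearts, with log2 fold changes of -1.83 for Trp, -2.26 for Asp, -1.77 for Lys, -1.18 for Gly and -2.06 for Arg. The share of all features called against C_HF is not given here, so these calls stand without a background. The Arg call was also lost when only the LP and C hearts were fitted (-1.24, adjusted p 0.0532). Depth differed between these groups, with medians of 176730 reads in LP hearts and 1101120 in C hearts, and its part in the result was not tested. The groups also lie in the separate ranges of column numbers given above.

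**Figure D3:**
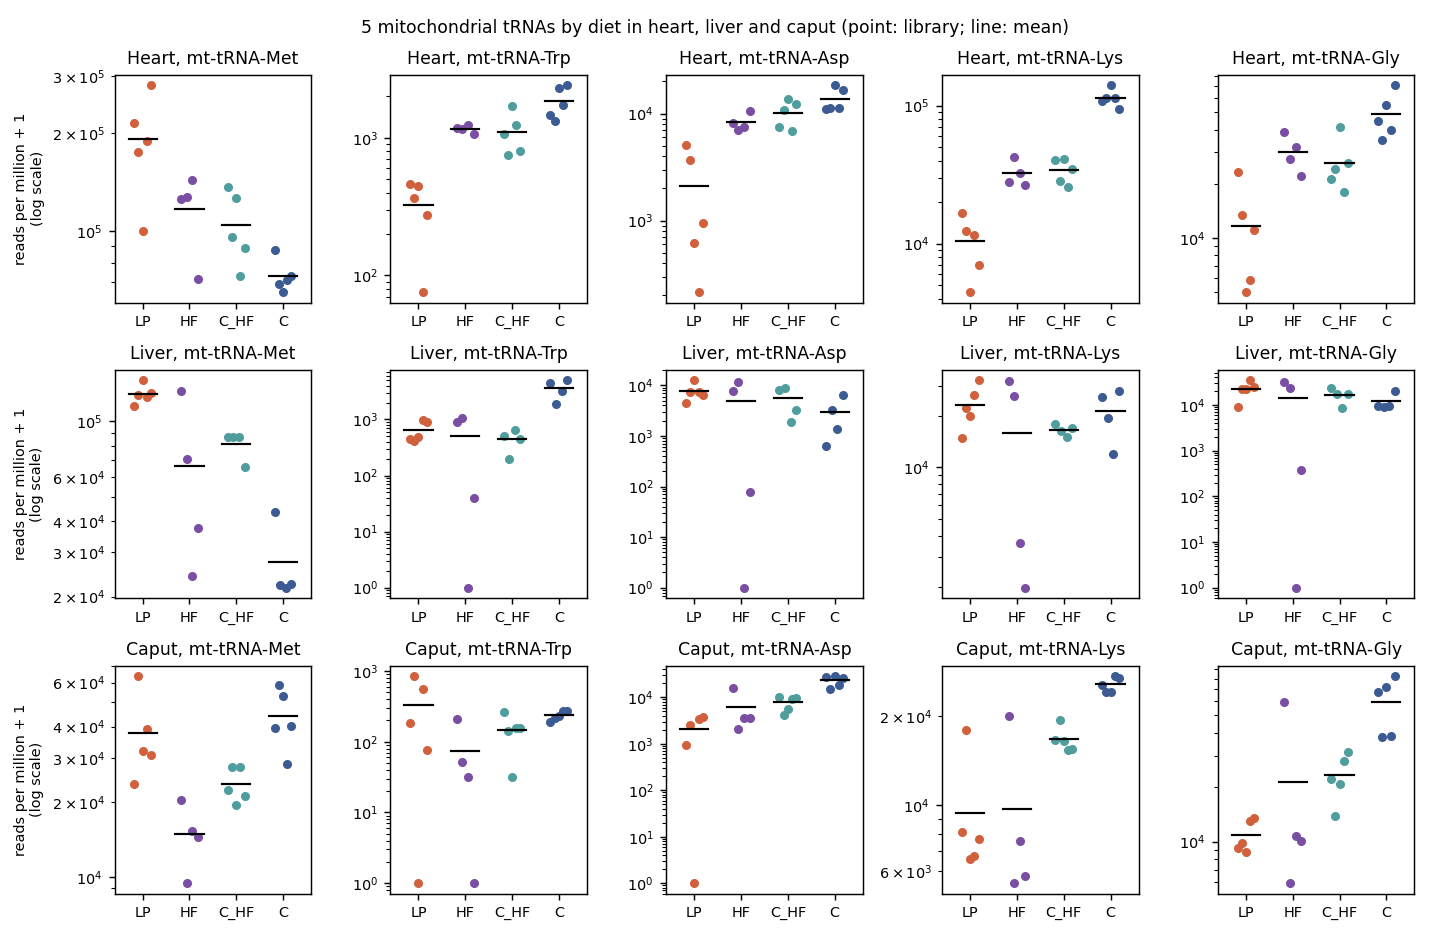
Levels of Met, Trp, Asp, Lys and Gly as RPM + 1 on a log axis in heart, liver and caput, 1 point per library and a line at each group's mean, for LP, HF, C_HF and C. In heart the LP libraries of Met lie at 100510.1 to 281298 RPM above the C libraries at 65096 to 87869 RPM, while those of Lys, at 4450.4 to 16715 RPM, lie below every other heart group.

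In liver the same contrast called 2 members, Met higher and Trp lower, with 35.6% of 205 features called. Met had 115209, 126898, 145469.6, 125079 and 129085 RPM in LP livers, against 43376, 22192, 21686 and 22369.7 RPM in C livers. All LP livers exceeded all C livers, at a log2 fold change of 2.61 ± 0.76 (edgeR adjusted p 0.00935). Trp had 439.6, 407, 489, 974 and 914 RPM in LP livers, against 4478, 1849.9, 3243 and 4959 RPM in C livers. The ranges did not overlap, at -2.06 ± 0.75 (adjusted p 0.0353). The other 5 had log2 fold changes between 0.49 (Lys) and 1.58 (Asp), none of them called, and their ranges overlapped. Over all features 29.3% had ranges that did not overlap. Column numbers set these C livers apart as well, from LP and C_HF livers alike.

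Per base, Met held 62.8% ± 6.87 of the 7 in LP livers (SD, n = 5) and 36.3% ± 11.9 in C livers (n = 4), and Trp 0.319% ± 0.116 in LP livers and 4.81% ± 1.39 in C livers. Set against C_HF livers instead, neither Met (1.5, adjusted p 0.776) nor Trp (1.53, 0.854) was called, and the Trp direction was the opposite one. Scaled to the total of the mitochondrial tRNAs, Met was not called (0.93, adjusted p 0.125). The Trp call was lost without the filter on low counts (adjusted p 0.0505) and without C replicate 3 or 4, or without LP replicate 1, 2, 3 or 5, where its log2 fold change ran from -1.63 to -2.01.

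In caput, 4 of the 6 members tested were lower with LP, and Trp was too low to be tested. The background was 41.4% of 145 features. Asp had 919, 2549.9, 0, 3456 and 3730.2 RPM in LP caput, against 26896, 15299, 28838, 18182 and 26169 RPM in C caput, a log2 fold change of -3.38 ± 0.61 (edgeR adjusted p 4.15e-05). Gly had 9195, 9775, 8772, 12961 and 13503 RPM in LP caput, against 67468, 37957, 71738, 38378 and 82803 RPM in C caput (-2.66 ± 0.55, adjusted p 0.000155). Every LP library lay below every C library for both.

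Arg fell likewise, to 4386 to 11475 RPM in LP caput, against 31983 to 63803 RPM in C caput, with no overlap (-2.64 ± 0.50, adjusted p 4.15e-05). Lys had 8091, 17849.5, 6579, 6727 and 7684 RPM in LP caput, against 25382, 24042, 24138, 27243 and 26832 RPM in C caput (-1.73 ± 0.48, adjusted p 0.00245), again apart. Ranges did not overlap for 25.5% of all features. Met averaged 37832 RPM in LP caput and 43955 RPM in C caput (-0.47 ± 0.42, adjusted p 0.408), and its ranges overlapped, as did those of Ile. Without the 2 LP libraries under 5000 reads all 4 calls stayed, at -3.07 for Asp, -2.38 for Gly, -2.43 for Arg and -1.86 for Lys. The Lys call was lost when counts were scaled to the total of the mitochondrial tRNAs (-0.50, adjusted p 0.214). Median depth was 5438 reads in LP caput and 65559 in C caput, and its part beyond those libraries was not tested.

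Testis showed no call between LP and C or between HF and C_HF, in which 0% of its 447 features were called by edgeR. No member had an unadjusted p under 0.05 in either contrast, and DESeq2 called none of the members. Over all features, unadjusted p was under 0.05 for 39 in the LP contrast and for 19 in the HF contrast, and DESeq2 called 0 and 2.

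Between the control diets, in contrast, 6 of 7 members were lower in testis with C_HF than with C, and 46.8% of features were called. Lys had 3348, 2458, 4340.0, 1536 and 2253 RPM in C_HF testes, against 21889, 17747, 3435, 4264 and 12364 RPM in C testes, a log2 fold change of -3.79 ± 0.72 (edgeR adjusted p 0.000880). Asp had 716, 285, 1348, 102 and 431 RPM in C_HF testes, against 5885, 4200.1, 594, 491 and 3187 RPM in C testes (-4.05 ± 0.86, adjusted p 0.00113). The groups overlapped for both, since C replicates 3 and 4 were low beside the other 3 C testes.

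Arg had a log2 fold change of -3.36 ± 0.72 (adjusted p 0.00114), Ile of -3.59 ± 0.91 (0.00356), Gly of -2.10 ± 0.63 (0.0102) and Trp of -1.51 ± 0.50 (0.0173), and Met was not called (-0.71 ± 0.39, 0.139). Ile had 185, 0, 65.8, 0 and 71.9 RPM in C_HF testes, against 545, 308, 136, 107 and 349 RPM in C testes. The C_HF testes held 19530 to 43306 reads, so their Ile values rest on very few reads. The Trp call was lost without C_HF replicate 4 (-1.23) or 5 (-1.25). For all 7, the RPM ranges of the groups overlapped. Trp had 554, 321, 493, 205 and 216 RPM in C_HF testes, against 419.7, 366, 500.4, 348 and 338 RPM in C testes. Its fall was thus seen with TMM scaling but not with total counts. DESeq2, with a scaling of its own, also called 6 members in this contrast, among 240 of 447 features. With total counts the median log2 fold change of all features moved to 1.12, against 0.10 with TMM, and Trp (-0.12, adjusted p 0.852) and Gly (-0.47, 0.447) were not called, while Ile, Asp, Lys and Arg were, at -1.99, -2.29, -2.09 and -1.69. Met then had a log2 fold change of 0.62. The piRNA precursors made up 8.46% of reads in C_HF testes and 1.77% in C testes, and median depth was 30415 reads in C_HF testes and 223942 in C testes; their part in the result was not tested.

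Control diets also differed in heart, where 57.4% of features were called and Lys was the only member among them. It had 40260.3, 28539, 41354, 25795 and 34491 RPM in C_HF hearts, all below the C hearts given above, in a contrast where 44.2% of features did not overlap, with a log2 fold change of -1.80 ± 0.51 (edgeR adjusted p 0.00111). DESeq2 called 3 members, Trp and Gly besides Lys, among 148 of 242 features. Without C replicate 3, C replicate 5 or C_HF replicate 3 edgeR called 2, with 52.1%, 54.7% and 57.7% of features called. In liver 25.9% of features were called, and of the members Trp, with 497, 199.8, 637 and 445 RPM in C_HF livers, all below the C livers (-3.59 ± 0.91, adjusted p 0.00563). Met had 86611, 86392, 86638 and 65503 RPM in C_HF livers, each above every C liver, but was not called (1.11 ± 0.74, adjusted p 0.290). There 32.2% of features did not overlap. In both tissues the C libraries are those set apart by their column numbers. Median depth was 12002.5 reads in C_HF livers and 294411.5 in C livers.

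For caput, edgeR called 23.4% of features but 0 of 6 members between the control diets, with adjusted p from 0.0614 (Ile) to 0.512 (Lys). Unadjusted, 4 members and 57 of 145 features had p under 0.05, and DESeq2 called all 6 members and 66 features. Met, Asp, Lys, Gly and Arg were lower in every C_HF caput library than in any C caput library, while 15.2% of all features did not overlap. Gly, for example, had 22259.9, 13864, 20981, 27873 and 31297 RPM in C_HF caput, below the C caput values above, with a log2 fold change of -1.09 ± 0.52 (adjusted p 0.10) by edgeR and -1.84 (0.000689) by DESeq2. The 2 tools scale libraries differently: with the RLE scaling in edgeR, which moved the median of all features from 0.02 to -0.57 on the log2 scale, the 6 members were called as well. The share of all features called with RLE is not given here. Leaving out C replicate 3, 4 or 5 or C_HF replicate 1, 4 or 5 also gave 5 or 6 calls in edgeR, with 20.7% to 63% of features called. Set against C_HF caput rather than C caput, LP caput still had lower Asp (-2.08), Gly (-1.57), Arg (-1.64) and Lys (-1.32), all 4 called. The share of all features called in that contrast is not given here.

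Few features differed between HF and C_HF. There edgeR called 1.24% of features in heart, 2.93% in liver and 0.69% in caput, and 0 members in each. DESeq2 called 0 members in each. In heart no member had an unadjusted p under 0.05, and Lys, for example, had 28071, 42736, 32455 and 26539 RPM in HF hearts, 3 of 4 of them within the range of the C_HF hearts and 1 above it (log2 fold change -0.12 ± 0.53). In liver, Ile (2.81 ± 1.24) and Trp (1.95 ± 0.88) had unadjusted p under 0.05 by edgeR, among 53 of 205 features. The HF livers split, with Gly at 32506, 23481, 0 and 369 RPM in HF livers, against 23436, 17785, 8759 and 17460.0 RPM in C_HF livers. Replicate 3 among them is the library of 827 reads, where a count of 0 says little.

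HF caput also split. Gly had 59173, 5880.1, 10737 and 10057 RPM in HF caput, against the C_HF values above, and Lys had 19933, 5447, 7540.5 and 5759.7 RPM in HF caput. Replicate 1 was the high one for both. With all libraries no member had an unadjusted p under 0.05. Without HF replicate 1, edgeR called 4 members lower with HF, Asp (-1.07), Lys (-1.10), Gly (-1.12) and Arg (-1.06), with adjusted p between 0.0189 and 0.0433, among 24 of 156 features called (15.4%).

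In cauda, edgeR called 0% of 218 features and 0 of 7 members between LP and C, although 3 members had ranges that did not overlap, as did 8.72% of all features. Arg had 6435, 9505, 7981 and 10245 RPM in LP cauda, against 1555, 1364, 4631, 1901 and 845 RPM in C cauda. The ranges did not overlap, at a log2 fold change of 1.97 ± 0.50 (edgeR adjusted p 0.0507). Asp had 2102, 3616, 2786 and 4098 RPM in LP cauda, against 719, 446, 1637, 879 and 169 RPM in C cauda (1.91 ± 0.54, adjusted p 0.0946). Gly had 4528, 5212, 6733 and 6629 RPM in LP cauda, against 1069.8, 967, 2639, 3258 and 634 RPM in C cauda (1.74 ± 0.55, adjusted p 0.0946). These ranges did not overlap either.

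Ile in cauda had 325, 694, 513 and 651 RPM with LP, against 66.9, 49.6, 452, 155 and 0 RPM with C, with overlap (1.79 ± 0.54, adjusted p 0.0946). Unadjusted, these 4 members and 45 features had p under 0.05. DESeq2 called the 4 members among 17 features, at log2 fold changes of 1.88 (Ile), 2.01 (Asp), 1.85 (Gly) and 2.08 (Arg). C replicate 3 was high, and without it edgeR called Ile (2.87) and Arg (2.41), among 3 of 214 features (1.4%). Between HF and C_HF, and between C_HF and C, 0% of cauda features were called by edgeR. In the HF contrast 3 members and 18 features had an unadjusted p under 0.05, in the control contrast 3 members and 21 features, and DESeq2 called no member in either and 0 and 3 features. Without C replicate 3, edgeR called 1 member in the control contrast, among 9 of 214 features (4.21%).

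Sperm had 0% of its 180 features called in all 3 contrasts by edgeR, and DESeq2 called none. No feature had an unadjusted p under 0.05 between LP and C. Between HF and C_HF 2 members did, among 6 features. Ile had 48.8, 48.8, 46.3 and 27.5 RPM in HF sperm, against 351, 296, 199.9, 134 and 268 RPM in C_HF sperm, and Asp had 122, 293, 177 and 275 RPM in HF sperm, against 1171, 1775, 674, 417 and 464 RPM in C_HF sperm. Neither overlapped, which held for 4.44% of all features, but the log2 fold changes of -2.04 ± 0.83 for Ile and -1.72 ± 0.81 for Asp had adjusted p of 0.897 and 0.927. HF sperm libraries held 20512 to 129723 reads, so their Ile values rest on very few reads. Between C_HF and C, 1 member (Arg, -1.68 ± 0.64, adjusted p 0.299) and 21 features had an unadjusted p under 0.05. Trp was too low to be tested in sperm.

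**Figure D4:**
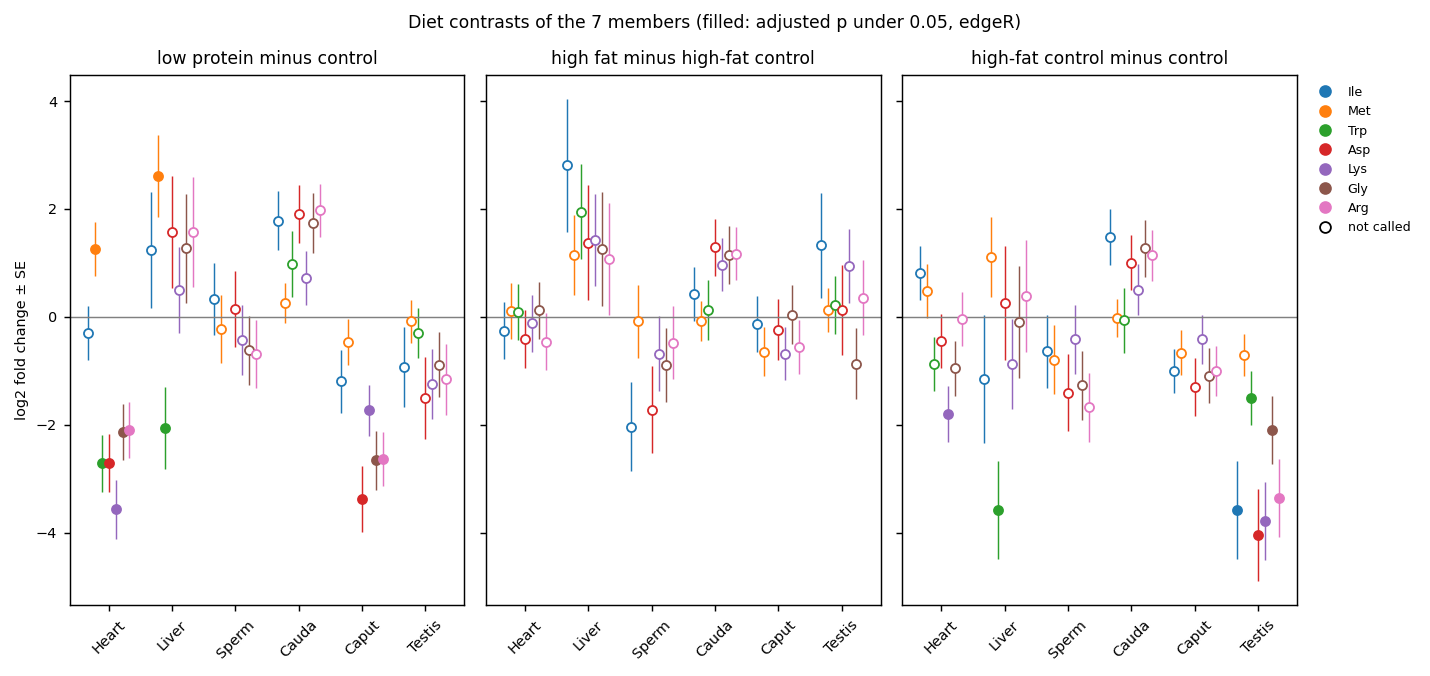
Log2 fold change of each member with its standard error in every tissue, for LP against C, HF against C_HF and C_HF against C; filled points have an adjusted p under 0.05. For LP against C in heart, Met lies at 1.25 and Lys at -3.57.

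Whether the LP contrast differed among the 6 tissues was tested directly, over the tissue-by-diet terms of 1 fit. It did for 6 of 7 members, with 35.9% of 410 features called: Lys (edgeR adjusted p 2.27e-05), Gly (7.98e-05), Arg (8.54e-05), Asp (0.000130), Trp (0.00122) and Met (0.0111), but not for Ile (0.273). Gly gave an example of the spread, with log2 fold changes of -2.14 in heart, -2.66 in caput and 1.74 in cauda. For the HF contrast 3.17% of 379 features were called, and of the members Ile (adjusted p 0.0411), with log2 fold changes of 2.81 in liver and -2.04 in sperm. That call was lost with total counts, where 0 members were called. The median over all liver features in this contrast was 1.06, and Ile had 1875, 1817, 0 and 0 RPM in HF livers, against 677, 666, 0 and 111 RPM in C_HF livers. In HF sperm Ile rested on very few reads.

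The ratio of Lys to Met reads within a library does not depend on any scaling of the library. It was looked at after the values of both had been seen and is given with no test. It exceeded 1 in 23 of 111 libraries: all 5 C hearts, 14 of 19 sperm libraries, 2 C testes, 1 C liver and 1 HF cauda. In heart it ran from 0.0251 to 0.0779 with LP, from 0.224 to 0.373 with HF, from 0.294 to 0.389 with C_HF and from 1.23 to 2.17 with C. No LP heart reached any other diet, and no other heart reached a C heart. In liver the ratio was 0.129 to 0.250 with LP, 0.0528 to 0.368 with HF, 0.173 to 0.260 with C_HF and 0.550 to 1.26 with C, so that the C livers stood above the other 3 diets, which overlapped each other. In caput the LP libraries lay lowest, at 0.172 to 0.344, against 0.399 to 0.985 with HF, 0.559 to 0.845 with C_HF and 0.411 to 0.962 with C. Cauda did not follow, with 0.352 to 0.528 for LP and 0.262 to 0.423 for C, which overlap.

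**Figure D5:**
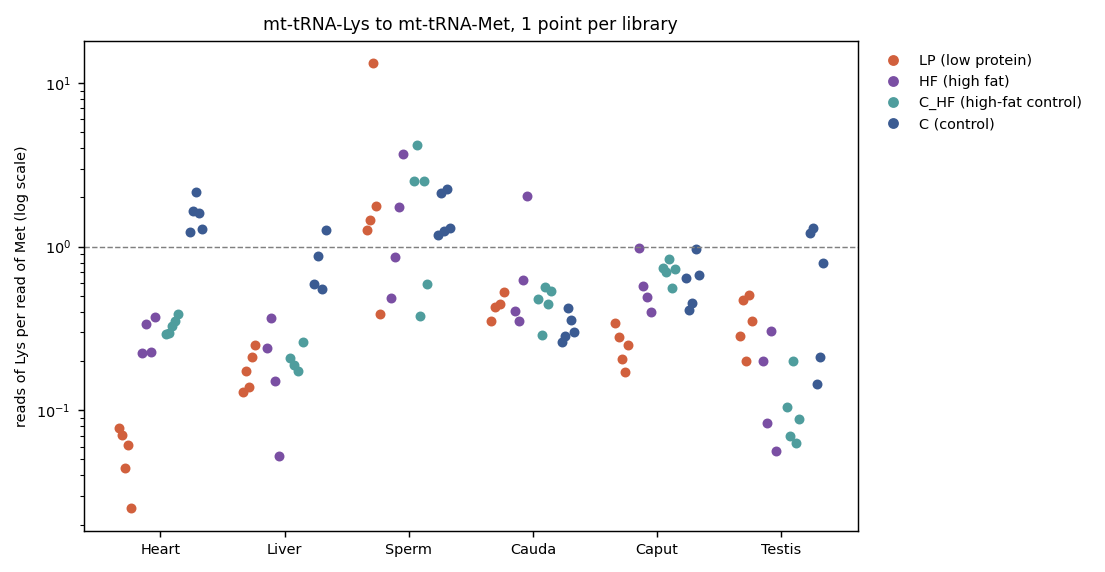
Reads of Lys per read of Met in each library on a log axis, by tissue, with LP, HF, C_HF and C in separate colours and a dashed line at 1. C hearts lie at 1.23 to 2.17 and LP hearts at 0.0251 to 0.0779.

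The rest of the mitochondrial tRNAs gives the setting for these values. In heart with LP against C, the members had 1 higher and 5 lower of 7 and a median log2 fold change of -2.14. The other heavy-strand mitochondrial tRNAs had 0 higher and 4 lower of 6 tested (median -1.78), the light-strand ones 0 and 6 of 8 (-1.62), and the cytosolic tRNAs for the same 7 amino acids 1 and 23 of 33 (-1.80), beside a median of -0.29 over all features. In liver the cytosolic list had 16 of 23 lower (median -2.28), whereas the other heavy-strand ones had 0 called of 6 (0.12), the light-strand ones 1 higher of 8 (0.66), and the 7 members a median of 1.27. In caput the medians were -2.19 for the 6 members tested, -1.37 for the other heavy-strand ones (2 of 4 lower), -1.24 for the light-strand ones (4 of 7 lower) and -0.29 for the cytosolic list (2 of 15 lower), beside -0.44 over all features. Between C_HF and C in testis, 6 of 7 members were lower (median -3.36), 5 of 6 other heavy-strand ones (-2.63), 6 of 8 light-strand ones (-2.03) and 31 of 33 cytosolic ones (-3.14), beside a median of 0.10 over all features with TMM and 1.12 with total counts. The reads of cytosolic tRNAs are shared among near-identical copies, so their counts are uncertain.

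Across the 24 group means, the features most like each member were nearly all mitochondrial tRNAs, by Pearson correlation of log2(mean RPM + 1) over 294 features, given as a description of groups that share libraries and depth. Asp, Gly and Arg formed a close set, with r of 0.946 between Asp and Arg, 0.943 between Gly and Arg and 0.934 between Asp and Gly. Lys came closest to mt-tRNA-Cys (0.912), and Ile to mt-tRNA-Gln (0.912), whose gene overlaps the Ile gene by 3 bases on the opposite strand. Met was nearest to mt-tRNA-Val (0.927), mt-tRNA-Ala (0.878) and mt-tRNA-Asn (0.769), none of them a member. Trp had the weakest partners, the cytosolic tRNA-Arg-TCT-5 (0.748), mt-tRNA-Phe (0.732) and Met (0.716), and with Asp the lowest r of any member pair, 0.365.

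The table lists each mitochondrial tRNA under 2 names. For 6 members the counts under both names differed by at most 0.414% in sum. Arg was the exception, with 468611 reads under its tRNA name and 25789 under mt-Tr. As a percentage of the Arg reads of the same library, mt-Tr stood at 5.81 ± 1.24 in heart, 5.17 ± 2.59 in liver, 5.38 ± 3.18 in sperm, 4.36 ± 1.83 in cauda, 4.75 ± 2.75 in caput and 5.57 ± 2.66 in testis (SD over libraries). Any pair of these tissue means differed by less than the larger SD of that pair, though heart and cauda differed by more than the heart SD.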

How the data were processed

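The authors deposited 1 table of read counts, whole numbers per named small RNA with no normalization, and every value here starts from these counts. The tools named per the submitters' processing notes are cutadapt and DESeq2, with mm10 as the build; aligner, counting rule and each tool's role were not given in the sources used. The 22 second names of mitochondrial tRNAs, 149 entries that list the same reads as another (summed difference under 5.0%) and all but 1 of the 56 5S ribosomal RNA entries were left out, and no comparison of names was made below 50 reads in all. The 1042 features kept hold 51.1% of the summed counts. RPM and RPM + 1 for plots were computed over them.

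The titles of the samples gave group and replicate number. Counts were tested in R 4.3.3 with edgeR 4.0.16 (quasi-likelihood test, TMM, filterByExpr, limma 3.58.1), p-values adjusted by Benjamini-Hochberg over all features tested, with DESeq2 1.42.0 as an alternative; tables and figures used Python 3.11.15, numpy 2.4.6, pandas 2.3.3 and matplotlib 3.10.9. The fits were tested on simulated data. Alternatives covered scaling, filters, entries, names, single diets, a replicate block, left-out libraries and C_HF in place of C.

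All 7 members are named wherever they were called, with the 3 features most like each. The members and lists were chosen with earlier results of these data known. Chi-square per degree of freedom was at least 1.54 in all 204 replicate pairs, above sampling noise. That value cannot tell whether libraries stem from different animals, since repeated libraries of the same RNA can also exceed sampling noise. All libraries were counted as separate. Coordinates and sequences are those of GENCODE M21 on GRCm38.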

Additional observations from a re-analysis of the deposited data

Results flagged for a closer look

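In the groups of 4 or 5 libraries, each member's RPM, the ratio of Lys to Met reads and the percentage of reads held by the 7 members were searched for a library far from the others of its group. Of 216 searches 28 found one, in 13 groups, where chance gives about 1 in 20. The causes were not tested.

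In liver, Met stood high in C replicate 1 (43376 RPM, next 22369.7) and low in C_HF replicate 4 (65503 RPM, next 86392), Gly was high in C replicate 4 (20621 RPM), and the 7 members held the least of the reads in LP replicate 1 (15.5%). In heart, HF replicate 4 had the lowest percentage, 15.8%. In caput, LP replicate 2, a library of 2353 reads, had 17849.5 RPM of Lys. HF caput replicate 1 was high for Asp (15498 RPM), Lys (19933 RPM), Gly (59173 RPM) and the percentage held by the 7 (14.4%, next 4.82%).

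Testis LP replicate 5 was high for Ile (1055 RPM), Trp (1417 RPM) and Arg (19579 RPM), and HF replicate 3 for Asp (1294 RPM) and Arg (6527 RPM). Cauda HF replicate 4 was high for Lys (26497 RPM), Gly (27445 RPM), the Lys to Met ratio (2.04) and the percentage held by the 7 (10.5%). Cauda HF replicate 2 was high for Met (16539 RPM), and cauda C replicate 3 for Arg (4631 RPM). Sperm LP replicate 3 had 13664 RPM of Asp and 9760.1 RPM of Arg, the highest of its group, with a Lys to Met ratio of 13.3, next 1.76. Other sperm libraries that stood apart were C_HF replicate 1 for Met (12057 RPM), HF replicate 4 for low Ile (27.5 RPM, very few reads) and HF replicate 2 for Trp (341 RPM) and Arg (2243 RPM).

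The LP contrast differed among tissues, by edgeR's test over the tissue-by-diet terms, for Met (adjusted p 0.0111), Trp (0.00122), Asp (0.000130), Lys (2.27e-05), Gly (7.98e-05) and Arg (8.54e-05), and the HF contrast for Ile (0.0411). The second name of Arg, mt-Tr, was not used in the main values and held 25789 reads.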

How the results depend on the processing

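Alternatives to the reported values comprised 16 settings and the fits that left out 1 library. Over the settings, 188 counts of members called stayed within 1.5 times and 41 did not; of the log2 fold changes of called members 392 kept direction and call, 86 lost the call and 19 turned. Where a value moved, the cause was not tested. Unless given above, the share of all features called in a setting is not reported, and those counts of members stand without a background.

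With LP against C, 2 members called in liver became 1 when scaled to the total of the mitochondrial tRNAs, without the filter and with the replicate block, and 0 against C_HF (chosen after seeing the data), where Trp turned to 1.53. The 0 in cauda became 2 with RLE scaling, total counts or the mitochondrial total, 4 without the filter, with mt-Tr, with the replicate block and with DESeq2, and 5 with only the 2 diets fitted. In testis LP against C_HF gave 3. For LP against C_HF the share of all features called is not given here. Between C_HF and C, the 1 in heart became 2 with RLE and 3 with DESeq2, the 1 in liver 2 with total counts, and the 0 in caput 6 with RLE, 5 with total counts, 6 with DESeq2 and 1 with the replicate block. The Ile call of the HF test among tissues was lost with total counts (0 called).

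Between tissues, the 7 of heart over liver became 2 with total counts, 1 with the mitochondrial total, and 0 within LP or HF libraries; Trp turned to -0.05, -1.10 and, within LP, -0.15, and within LP Asp (-0.63), Lys (-0.17) and Arg (-0.26) turned too. For liver over caput the 4 became 7 within LP and 0 within C_HF; Lys turned with the mitochondrial total (-0.27) and within C_HF (-0.51), and Met within C (-0.14). For caput over testis the 5 became 0 within LP, and Ile turned there (-0.01) and with the mitochondrial total (-0.42). For sperm against testis the 4 became 1 within C, 1 within LP and 0 within HF, where Ile turned (-0.24). For sperm against cauda the 1 became 3 with the mitochondrial total, 4 without the filter, 5 with all entries, 2 with mt-Tr, 2 within C (Arg 0.61), 2 within C_HF and 3 within HF. For cauda against caput the 5 became 2 with the mitochondrial total, where Met (0.56) and Lys (0.28) turned, and 0 within LP (Asp 0.86, Arg 0.43) and within HF (Lys 0.01).

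Leaving out 1 library gave 6 to 6 members called for LP against C in heart, 1 to 2 in liver, 4 to 5 in caput and 0 to 2 in cauda. HF against C_HF in caput gave 0 to 4. For C_HF against C, where only leaving out libraries was chosen after seeing the data, the range was 1 to 2 in heart, 0 to 6 in caput, 5 to 6 in testis and 0 to 1 in cauda. Testis Trp lost its call without C_HF replicate 4 or 5.

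The replicate numbers were not taken as pairs: within tissues 5 of 27 (caput) to 12 of 25 (cauda) same-numbered pairs had a correlation of their deviations over 0.1, and 50 of 270 across tissues by library name. In cauda, where the block gave 4 calls, the median correlation was 0.0945 for same numbers and -0.0185 for others. The call lost in liver with the block was that of Trp (-2.23, adjusted p 0.0958). The replicate block changed the counts of calls given above and no other count beyond 1.5 times.

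Depth limits Ile and Trp most, at 0 in 9 and 10 libraries. Intervals between libraries cover these samples only.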
